A study of Mus musculus with 304 samples.

Results

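Activin and TGF-beta signalling was followed through 10 genes of the deposited count table in single granule cells of the mouse dentate gyrus. The genes were chosen by symbol: the ligand subunit gene Inhba, the receptor genes Acvr1b, Acvr1c, Acvr2a and Tgfbr1, the transducer genes Smad2, Smad3 and Smad4, and the genes of the secreted binding proteins Fstl1 and Chrd. All 10 were found among the 22800 genes of the table. Each library holds the cytosol of 1 cell, taken up through a patch pipette (Patch-seq). Kainic acid, a glutamate receptor agonist that provokes seizures, had been injected into the hippocampus (70 nl, 5 mM), and 58 cells were taken on the injected side 1 day later (labelled KA1_DG_ipsi). A further 29 cells were taken 14 days after kainate, with no side given (Kainate_DG), and the 31 control cells came from mice without an injection (DG). For a second experiment an adeno-associated virus had been injected 1 month before sampling, and 59 cells came from mice given the GFP virus (GFP_Control) and 71 from mice given a virus for Id2, a regulator that holds helix-loop-helix factors off DNA (Id2_OE). The labels name no strain, age, viral promoter or animal. Each group therefore counts as 1 sample, no difference between groups was tested, and no spread between animals is available.

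Activins are secreted dimers of inhibin beta subunits, and Inhba codes for the beta A subunit. A ligand dimer binds a type II receptor such as Acvr2a, which activates a type I receptor (Acvr1b or Acvr1c for activins, Tgfbr1 for TGF-beta). The type I receptor phosphorylates Smad2 and Smad3, which enter the nucleus together with Smad4. Chordin, encoded by Chrd, binds bone morphogenetic proteins (BMPs) outside the cell, and Fstl1 codes for a secreted follistatin-like protein. In hippocampal neurons Inhba is known as a gene switched on by strong synaptic activity.

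Levels are CPM: the reads of a gene summed over the cells of a group, scaled to 1000000 summed reads of that group. Median reads per cell ranged from 1738610 in control cells to 7615492 at day 14, so shares of cells with a read are also given after each cell was thinned to 100000 reads, which left out 2 control cells. Intervals are at 95%. Those on levels cover counting error of reads only, and those on shares take each cell as 1 independent draw. Neither kind covers spread between animals. Prox1, the factor that defines granule cells, was between 217 and 296 CPM in the 5 groups, and Calb1, which marks mature granule cells, was at 1249 CPM in control cells, 411 CPM at day 1 and 702 CPM at day 14. Markers of microglia were also read: 15 of them summed to 3730 CPM in control cells, 779 CPM at day 1, 6606 CPM at day 14, 186 CPM with GFP and 608 CPM with Id2. Of the 15, P2ry12 was at 0 at day 1, and in the other groups each had a read. Cells with at least 1000 CPM of these markers, called microglia-rich here, numbered 18 of 31, 7 of 58, 20 of 29, 2 of 59 and 11 of 71. Summed markers of granule cells were lowest in the kainate groups. They stood at 4229 CPM in control cells, 2017 CPM at day 1, 1916 CPM at day 14, 4540 CPM with GFP and 3150 CPM with Id2. Over the groups, summed markers of interneurons ranged from 357 to 1184 CPM, of oligodendrocytes from 146 to 369 CPM and of astrocytes from 102.5 to 289 CPM. Those of CA pyramidal cells ranged from 99.8 to 281 CPM and of vascular cells from 1.79 to 108.5 CPM.

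The 250 bases before the start of transcription are shown for Inhba, Smad3 and Acvr1c, the 3 members with a higher level at day 1 than in control cells. They are read 5′ to 3′ on the strand of the gene, from RefSeq's promoters on GRCm38.p6. Capitals would mark the Smad box CAGAC on either strand, and none of the 3 windows holds it.
Inhba, chr13:16011601-16011850, plus strand: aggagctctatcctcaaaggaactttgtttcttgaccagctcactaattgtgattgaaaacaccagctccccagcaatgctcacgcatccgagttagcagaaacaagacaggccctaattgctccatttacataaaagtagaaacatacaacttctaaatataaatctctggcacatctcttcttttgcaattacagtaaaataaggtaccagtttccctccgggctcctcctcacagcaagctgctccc
Smad3, chr9:63757995-63758244, minus strand: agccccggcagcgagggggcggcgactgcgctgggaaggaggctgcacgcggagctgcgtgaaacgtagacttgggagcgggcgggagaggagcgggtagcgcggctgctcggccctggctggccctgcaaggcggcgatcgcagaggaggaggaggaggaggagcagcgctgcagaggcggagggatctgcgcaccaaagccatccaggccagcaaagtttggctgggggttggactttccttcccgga
Acvr1c, chr2:58357759-58358008, minus strand: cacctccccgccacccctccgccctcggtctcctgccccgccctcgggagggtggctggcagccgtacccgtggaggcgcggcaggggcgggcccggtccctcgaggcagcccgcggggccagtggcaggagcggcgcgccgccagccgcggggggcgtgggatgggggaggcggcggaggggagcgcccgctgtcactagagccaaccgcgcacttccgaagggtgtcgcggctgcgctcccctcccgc
The Inhba window differs from the others in base composition: 43.2% of its bases are G or C, against 69.2% for Smad3 and 79.6% for Acvr1c, with a median of 52.4% over all 32851 windows. Both strands were searched for the cAMP response element TGACGTCA and its short form TGACG, the AP-1 site TGANTCA, the Smad element GTCTAGAC, the Smad box CAGAC, and the E-box CANNTG, whose form CAGCTG was counted apart, and for the CArG box in a loose form. Of all windows of this length, 1.55% hold the first, 17.8% the second, 6.75% the third, 0.167% the Smad element, 42.2% CAGAC, 66.2% CANNTG, 13% CAGCTG and 67.1% the CArG form. The letters TGACGTCA include the short form, and CANNTG includes CAGCTG. Of these motifs only the CArG form occurs in the windows printed above, at 2 places for Smad3, 6 for Acvr1c and 0 for Inhba. For 8 members 10 windows were found, and CAGAC was present in 2 of them, 1 of the 2 windows of Tgfbr1 and that of Acvr2a, at position -188 from the start and shown in capitals as read on the other strand.
Acvr2a, chr2:48813859-48814108, plus strand: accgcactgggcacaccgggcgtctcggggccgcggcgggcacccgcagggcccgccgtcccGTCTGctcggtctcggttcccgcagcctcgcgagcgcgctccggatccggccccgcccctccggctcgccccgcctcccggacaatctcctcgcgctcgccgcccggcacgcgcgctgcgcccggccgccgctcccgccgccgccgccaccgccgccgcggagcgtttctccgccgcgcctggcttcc

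Inhba (ENSMUSG00000041324.14, GRCm38 chromosome 13, 16011851 to 16031621, plus strand, protein coding) was the member with the highest level at day 1. It stood at 46.4 CPM in control cells (exact Poisson interval 44.7 to 48.01), 727 CPM at day 1 (724 to 729), 46.6 CPM at day 14 (45.8 to 47.5), 17.5 CPM with GFP (16.9 to 18.04) and 24.5 CPM with Id2 (23.9 to 25.1). Single control cells ranged from 0 to 749 CPM with a median of 0. Day 1 cells ranged from 0 to 4232 CPM with a median of 351 CPM, and 15 of the 58 were at 1000 CPM or more. Day 14 cells ranged from 0 to 362 CPM with a median of 0, and the highest GFP and Id2 cells were at 867 CPM and 1710 CPM over medians of 0. The day 1 cells were thus high as a group but overlapped with all others, since 14 of them had no read of Inhba.

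A read of Inhba was found in 5 of 31 control cells, 44 of 58 day 1 cells, 9 of 29 day 14 cells, 4 of 59 GFP cells and 5 of 71 Id2 cells. At equal depth the shares were 13.8% (exact Clopper-Pearson interval 3.89% to 31.7%), 74.1% (60.96% to 84.7%), 31.03% (15.3% to 50.8%), 6.78% (1.88% to 16.5%) and 5.63% (1.56% to 13.8%). The day 1 level of Inhba was 15.7-fold that of control cells and 15.6-fold that of day 14 cells. Against control cells its log2 ratio, taken after adding 1 CPM as all log2 ratios here, was 3.94, and it lay between 2.98 and 5.30 in the 12 alternative settings. It passed the low-level filter against control cells only through the day 1 group, so some difference was bound to appear. At day 14 the log2 ratio to control was 0.01, between -0.96 against the 9 controls whose titles do not begin with J and 1.37 against GFP cells. In the GFP cells 72.2% of the Inhba reads came from 1 cell, and the level without it was 4.94 CPM, while the Id2 level without its top cell was 15.02 CPM. Leaving out the microglia-rich cells gave 50.3 CPM in control cells, 778 CPM at day 1 and 44.8 CPM at day 14.

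**Figure D1:**
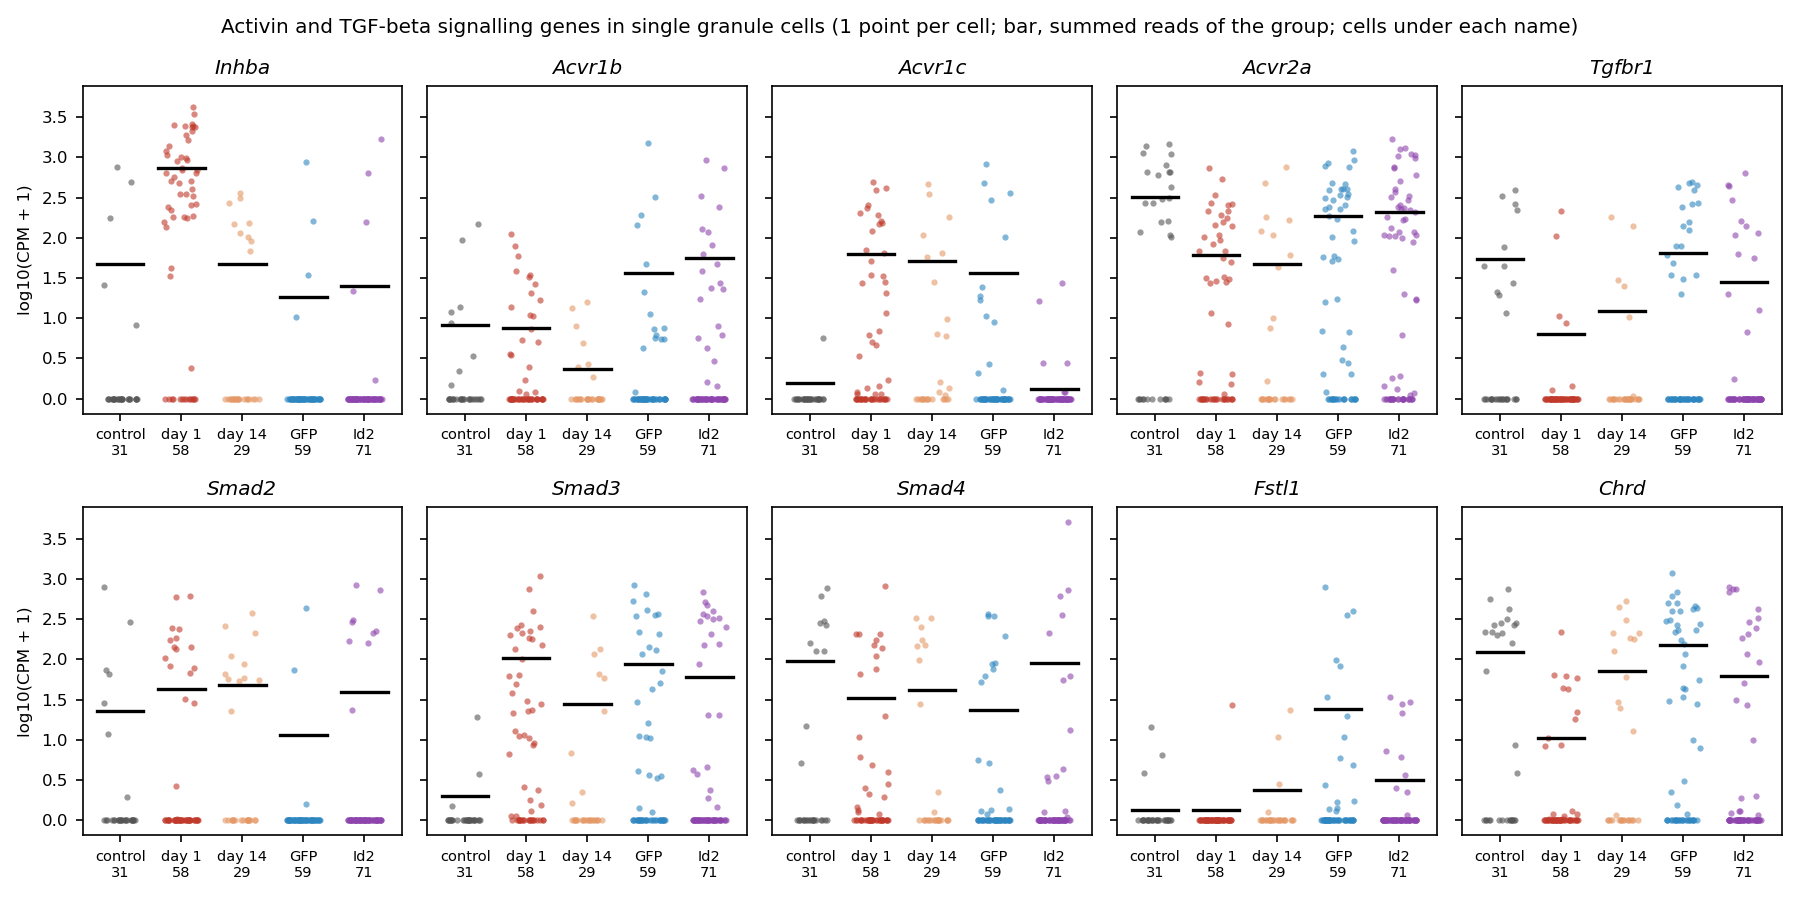
Level of each of the 10 genes in single cells, as log10(CPM + 1), by group, with 1 point per cell, a bar at the level from summed reads and the number of cells under each group name. Inhba is at 100 CPM or more in 41 of the 58 day 1 cells, and each gene has cells at 0 in every group.

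Among the receptors, Acvr2a, the type II receptor gene for activin, was the highest member in control cells per length of transcript, at 56.8 CPM per kb of exonic sequence. Its level was 323 CPM in control cells, 60.6 CPM at day 1, 46.8 CPM at day 14, 184 CPM with GFP and 206 CPM with Id2. Control cells ranged from 0 to 1483 CPM with a median of 158 CPM. At day 1 the range was 0 to 736 CPM with a median of 4.34 CPM, at day 14 it was 0 to 751 CPM with a median of 0, and GFP and Id2 cells had medians of 16.2 CPM and 18.8 CPM with highest cells of 1212 CPM and 1675 CPM. By summed reads Acvr2a was thus lower in both kainate groups than in all 3 others, and the cells of all groups overlapped. The level at day 1 was 5.34-fold lower than in control cells (log2 ratio -2.40, between -3.09 and -1.59 in the alternatives) and at day 14 6.91-fold lower (log2 ratio -2.76, between -5.24 and -1.95). Equal-depth shares of cells with a read were 65.5% in control cells, 52.5% with GFP, 53.5% with Id2, 50% at day 1 and 31.03% at day 14. Of the exonic bases of Acvr2a, 446 (7.84%) also belong to Orc4 on the opposite strand, and reads there cannot be assigned by strand, since no source used here gives the strand setting of the counting. Orc4 itself was at 154, 171, 98.4, 226 and 203 CPM in control, day 1, day 14, GFP and Id2 cells.

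Acvr1c, which codes for the type I receptor ALK7, was nearly absent from control and Id2 cells. It stood at 0.551 CPM in control cells, where all 37 reads came from 1 cell, and at 61.04 CPM at day 1, 50.3 CPM at day 14, 35.9 CPM with GFP and 0.331 CPM with Id2. A read was found in 1 of 31 control cells, 32 of 58 day 1 cells, 14 of 29 day 14 cells, 13 of 59 GFP cells and 6 of 71 Id2 cells. The highest single cells reached 4.67 CPM in the control group, 499 CPM at day 1, 468 CPM at day 14, 821 CPM with GFP and 26.7 CPM with Id2, with group medians at or near 0 in all 5. The kainate and GFP groups thus hold a part of cells with clear levels, and the other groups had no cell above 26.7 CPM. At equal depth the shares were 3.45%, 37.9%, 27.6%, 13.6% and 2.82%. At day 1 Acvr1c was above its control level by 110.8-fold, and by 91.3-fold at day 14. In both comparisons it passed the low-level filter only through the kainate group, so some difference was bound to appear. Against GFP cells in place of the uninjected controls, the log2 ratios fell short of 1, at 0.75 for day 1 and 0.48 for day 14. In the day 14 group 1 cell gave 52.2% of the reads, and the level without it was 25.4 CPM. With Id2 the gene was 108.5-fold lower than with GFP (log2 ratio -4.79). It passed the low-level filter there only through the GFP group, so some difference was bound to appear. Between cells with titles up to 95 the log2 ratio was -5.03, and between those with the higher title numbers, where GFP cells had 1.87 CPM, it was -1.27.

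Tgfbr1, the type I receptor gene for TGF-beta, stood at 53.9 CPM in control cells, 5.37 CPM at day 1, 11.4 CPM at day 14, 63.5 CPM with GFP and 26.8 CPM with Id2. Reads were found in 11 of 31, 6 of 58, 6 of 29, 19 of 59 and 14 of 71 cells. The median cell was at 0 in all groups, and the highest were at 396, 215, 180, 490 and 640 CPM. The level at day 1 was 10.03-fold lower than in control cells (log2 ratio -3.11, between -3.39 and -1.98) and at day 14 4.74-fold lower (log2 ratio -2.15, between -4.41 and -1.24). Tgfbr1 was thus low in both kainate groups, with overlap between all groups. At day 1 against control it passed the low-level filter only through the control group, so some difference was bound to appear. In control cells 59.9% of its reads came from 1 cell, and the level without that cell was 23.5 CPM. Without the top cell of their group the levels were 2.02 CPM at day 1 and 6.74 CPM at day 14. Microglia express Tgfbr1, and without the microglia-rich cells it was 20.2 CPM in control cells, 2.20 CPM at day 1 and 0 at day 14, where 9 cells were left. Those levels rest on reads in 3 of 13 control cells, 4 of 51 day 1 cells and 0 of 9 day 14 cells. Whether microglial RNA bears on the difference was not tested. With Id2 the log2 ratio to GFP was -1.21, and it stayed at -1 or below in 6 of 11 alternatives and was -0.04 between the cells with the higher title numbers.

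Acvr1b, which codes for the activin type I receptor ALK4, was low in the uninjected and kainate cells: 7.25 CPM in control cells, 6.51 CPM at day 1 and 1.34 CPM at day 14. It stood at 35.6 CPM with GFP and 54.4 CPM with Id2. Reads were found in 8, 22, 7, 15 and 21 cells of these groups. Most of the higher levels rested on few cells: 1 cell gave 69.4% of the reads with GFP and 65.8% with Id2, and without it the levels were 11.1 and 19.4 CPM. In control cells 1 cell gave 76.2% of the reads, and without it the level was 1.80 CPM. The difference between day 14 and control cells (log2 ratio -1.82) turned to 1.04 against the controls without J titles, where Acvr1b was at 0.141 CPM. At day 14 against control Acvr1b passed the low-level filter only through the control group, so some difference was bound to appear.

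Smad3, a receptor-activated transducer, was read in 3 of 31 control cells, 37 of 58 day 1 cells, 9 of 29 day 14 cells, 26 of 59 GFP cells and 22 of 71 Id2 cells (GRCm38 chromosome 9, 63646767 to 63757994, minus strand). Its level was 0.968 CPM in control cells, 101.9 CPM at day 1, 27.1 CPM at day 14, 87.1 CPM with GFP and 58.8 CPM with Id2. Control cells ranged from 0 to 18.04 CPM, and their other cells with a read were at 2.72 CPM and 0.505 CPM. Day 1 cells ranged from 0 to 1089 CPM with a median of 6.57 CPM, and in the day 14, GFP and Id2 groups the medians were 0 and the highest cells 347, 828 and 679 CPM. The uninjected control cells were thus the low group, and day 1, GFP and Id2 cells stood between 58.8 and 101.9 CPM. At equal depth the shares were 3.45% (0.0873% to 17.8%), 48.3% (34.95% to 61.8%), 20.7% (7.99% to 39.7%), 30.5% (19.2% to 43.9%) and 25.4% (15.8% to 37.1%). The log2 ratio to control was 5.71 at day 1 and 3.84 at day 14. In both comparisons Smad3 passed the low-level filter only through the kainate group, so some difference was bound to appear. With GFP cells in place of control cells the log2 ratio was 0.22 at day 1 and -1.65 at day 14. The direction at day 14 thus depends on which control is taken. Against day 14, Smad3 was 3.75-fold higher at day 1 (log2 ratio 1.87, between 1.64 and 3.04 in the 9 alternatives).

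**Figure D2:**
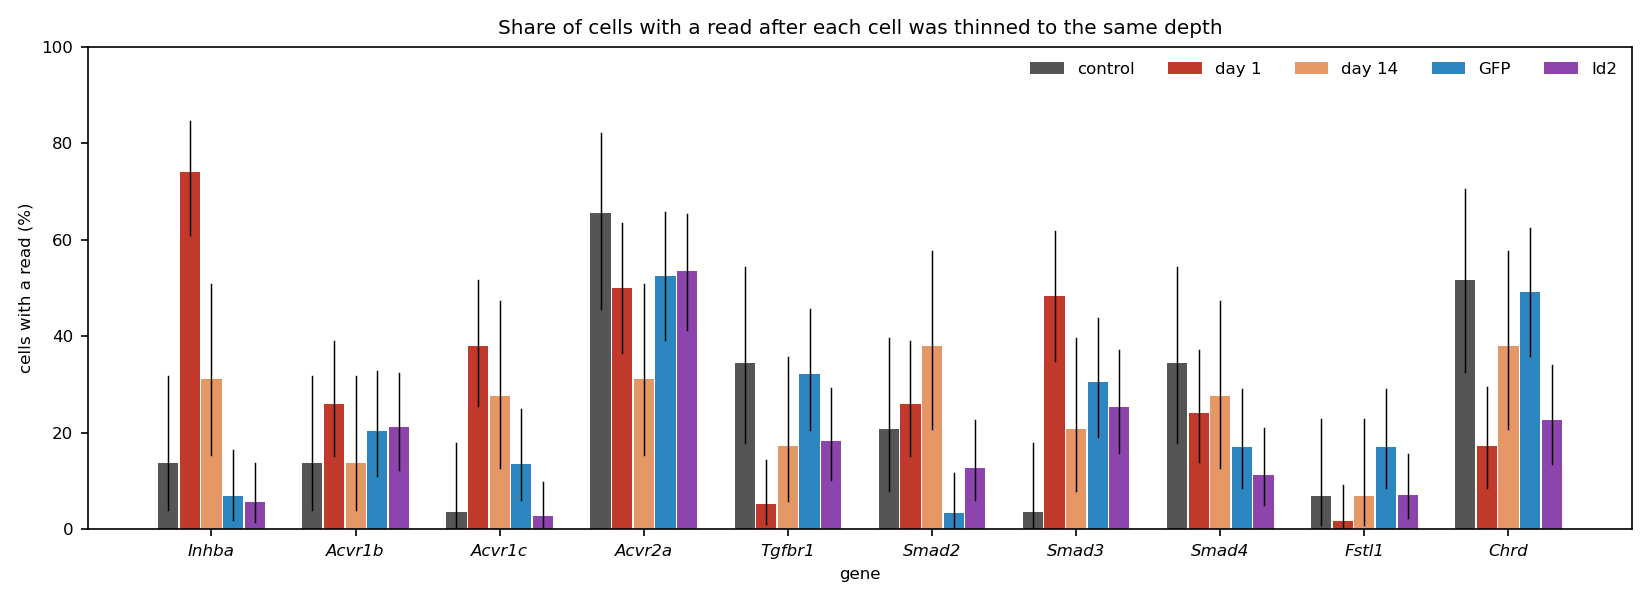
Share of cells with a read of each gene after every cell was thinned to 100000 reads, in percent, by group, with exact 95% Clopper-Pearson intervals as thin lines. Inhba stands at 74.1% at day 1 and at most 31.03% in the other groups, while Smad3 and Acvr1c are lowest in control or Id2 cells and are also read in GFP cells.

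Smad2, the other receptor-activated transducer of this branch, stood at 21.9 CPM in control cells, 41.7 CPM at day 1, 47.1 CPM at day 14, 10.5 CPM with GFP and 38.4 CPM with Id2. Reads were found in 7, 17, 11, 3 and 9 cells. All group medians were 0, and the highest cells were at 799, 606, 371, 435 and 844 CPM, so the groups overlapped throughout. The log2 ratio to control was 0.90 at day 1 and 1.07 at day 14, and the latter was -0.31 in the authors' scaled table. In the 7 microglia-rich cells of day 1 Smad2 was at 282 CPM, against 15.6 CPM in the other 51. With GFP 1 cell gave 89.3% of the reads, and the level without it was 1.14 CPM.

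Smad4, the shared partner of the activated Smads, was at 92.98 CPM in control cells, 32.01 CPM at day 1, 40.6 CPM at day 14, 22.7 CPM with GFP and 87.9 CPM with Id2. Reads were found in 10, 23, 10, 16 and 15 cells, and the highest cells were at 760, 824, 327, 366 and 5044 CPM around medians of 0. The log2 ratio to control was -1.51 at day 1 and -1.18 at day 14. Without its top cell the day 1 level was 19.6 CPM. Against GFP cells both ratios turned positive, at 0.48 and 0.81. The higher level with Id2 than with GFP (log2 ratio 1.91) rested on the cell at 5044 CPM, which gave 82.2% of the Id2 reads. Without the top cell of each group the log2 ratio was -0.31, and without the microglia-rich cells, of which that cell is one, it was -0.42.

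Chrd, the gene of the BMP antagonist chordin, was lower at day 1 than in every other group. It stood at 121.1 CPM in control cells, 9.43 CPM at day 1, 70.5 CPM at day 14, 148 CPM with GFP and 61.7 CPM with Id2. Control cells ranged from 0 to 756 CPM with a median of 2.87 CPM, and 13 of the 31 were at 100 CPM or more. At day 1 the range was 0 to 218 CPM with a median of 0, and 1 of the 58 reached 100 CPM. Day 14 cells reached 530 CPM, GFP cells 1174 CPM and Id2 cells 782 CPM, and 8, 20 and 11 of them were at 100 CPM or more. At equal depth 51.7% of control cells, 17.2% of day 1 cells, 37.9% of day 14 cells, 49.2% of GFP cells and 22.5% of Id2 cells had a read. Chrd was 12.8-fold lower at day 1 than in control cells (log2 ratio -3.55, between -3.98 and -3.08) and 7.47-fold lower than at day 14 (log2 ratio -2.78). With Id2 it was 2.39-fold lower than with GFP (log2 ratio -1.25, between -1.40 and -0.95). Of its exonic bases, 239 (3.82%) are shared with Thpo on the opposite strand. Thpo stood at 32.8, 21.2, 28.02, 110.3 and 48.6 CPM in the 5 groups, and was, like Chrd, lowest at day 1 and highest with GFP.

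Fstl1 was low outside the GFP cells. Its level was 0.328 CPM in control cells, 0.321 CPM at day 1, 1.36 CPM at day 14, 23.3 CPM with GFP and 2.19 CPM with Id2, in 3, 1, 4, 16 and 10 cells. The highest cells were at 13.4, 25.7, 22.7, 789 and 32.9 CPM. GFP cells were thus the only group with cells above 100 CPM, 3 in number. With Id2 the level was 10.6-fold lower than with GFP (log2 ratio -2.92, between -4.08 and -1.97). Fstl1 passed the low-level filter there only through the GFP group, so some difference was bound to appear. It was below the level of a measured gene in each comparison among kainate and control cells.

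A gene counts here as measured in a comparison when at least 20% of the cells of 1 group had a read and 1 group reached 5 CPM, and as higher or lower when its log2 ratio was at least 1 in size. At day 1 against control, 9 members were measured, of which 3 were higher (Inhba, Acvr1c and Smad3), where 23.2% of the 9079 measured genes were. Another 4 were lower (Acvr2a, Tgfbr1, Smad4 and Chrd), against 15.2% of all. At day 14 against control, 3 of 9 were higher (Acvr1c, Smad2 and Smad3; 23.8% of 9469 genes) and 4 lower (Acvr1b, Acvr2a, Tgfbr1 and Smad4; 15.8%). Both comparisons use the same control cells. Between day 1 and day 14, 3 of 9 were higher at day 1 (Inhba, Acvr1b and Smad3; 16.6% of 9823 genes) and 1 was lower (Chrd; 17.4%). With Id2 against GFP, 1 of 8 was higher (Smad4; 10.2% of 7846 genes) and 4 lower (Acvr1c, Tgfbr1, Fstl1 and Chrd; 12.6%). With GFP against control, 4 of 9 were higher (Acvr1b, Acvr1c, Smad3 and Fstl1; 19.3% of 8085 genes) and 1 lower (Smad4; 13%). Of the 9 measured at day 1, 3 had passed the filter through the day 1 group alone and 1 through the control group alone. At day 14 against control, 3 of 9 (Inhba, Acvr1c and Smad3) had passed through the day 14 group alone. Another 1 (Acvr1b) had passed through the control group alone. Between day 1 and day 14, 1 of 9 had passed through each group alone. With Id2 against GFP, 3 of 8 (Acvr1c, Tgfbr1 and Fstl1) had passed through the GFP group alone. With GFP against control, 3 of 9 (Acvr1c, Smad3 and Fstl1) had passed through the GFP group alone and 1 through the control group alone. The counts are therefore a description only. The titles of kainate cells begin with K, those of GFP cells with IDS and those of control cells with J, T or a number. Treatment and title series therefore cannot be told apart in any comparison with control cells. The same holds where GFP cells stand in for control cells.

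**Figure D3:**
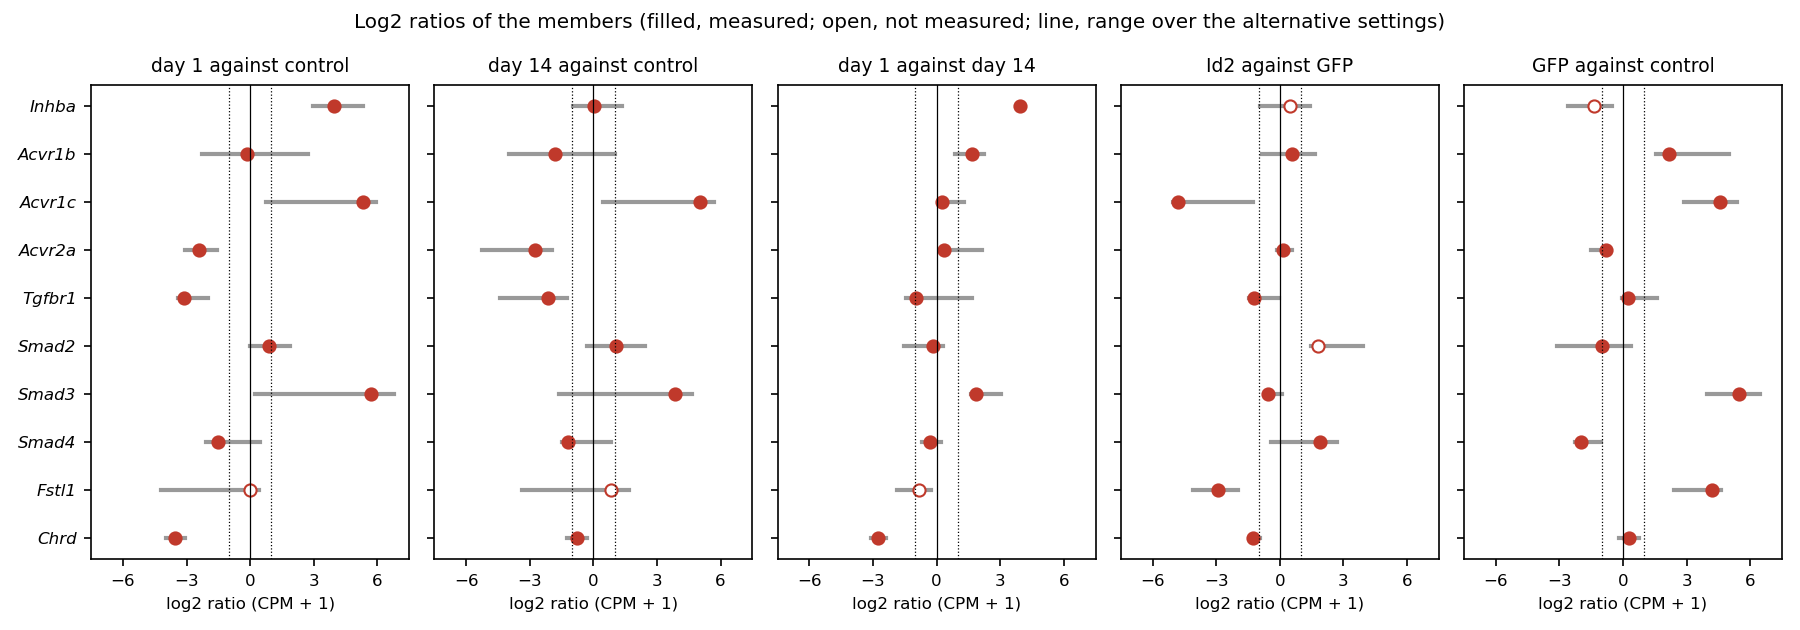
Log2 ratio of each gene in the 5 comparisons, after adding 1 CPM, with the range over the alternative settings as a grey line, dotted lines at 1 and -1 and open points for genes not measured. Inhba keeps a ratio above 2 at day 1 against control and against day 14, while the lines of Smad3 and Acvr1c reach to within 1 of 0 or past it when GFP cells stand in for control cells.

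Per length of transcript, the order of the members differed between the groups. In control cells Acvr2a (56.8 CPM per kb), Smad4 (25.1) and Chrd (19.4) led. At day 1 Inhba led with 113.7 CPM per kb, followed by Smad3 with 18.4 and Acvr2a with 10.7. At day 14 the first 3 were Chrd (11.3 CPM per kb), Smad4 (10.9) and Acvr2a (8.22), and in GFP cells they were Acvr2a (32.3), Chrd (23.6) and Smad3 (15.7). In Id2 cells Acvr2a led with 36.3 CPM per kb. With 1 sample per group, no spread is available by which neighbours in these orders could be told apart.

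In single cells at equal depth, transcripts of receptors and Smads were seldom read together, but each alone was also read in only a part of the cells. In control cells Acvr2a had a read in 65.5%, a type I receptor gene in 44.8%, Smad2 or Smad3 in 20.7% and Smad4 in 34.5%. Whether they met less often than these single shares would give was not tested. A read of Acvr2a, of Acvr1b, Acvr1c or Tgfbr1, of Smad2 or Smad3 and of Smad4 occurred together in 3 of 29 control cells, 2 of 58 day 1 cells, 2 of 29 day 14 cells, 2 of 59 GFP cells and 0 of 71 Id2 cells, which allows a share of up to 4.23%. The median cell had a read of 3 of the 10 members at day 1 and of 2 in each other group. Inhba and Smad3 were read together in 24 of 58 day 1 cells, 3 of 29 day 14 cells, 2 of 71 Id2 cells and in none of the 29 control and 59 GFP cells, which allows up to 10.3% and 5.08%. Inhba and Acvr2a were together in 23 day 1 cells, and Inhba and Acvr1c in 21. With Tgfbr1 left out of that set the counts were 2 of 29 control cells and the same as before in the other groups. Either Smad2 or Smad3 had a read in 36 of 58 cells at day 1, 14 of 29 at day 14, 6 of 29 without kainate, 19 of 59 with GFP and 26 of 71 with Id2.

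Within the day 1 cells, Inhba was compared cell by cell with other members and with activity-regulated genes. Tgfbr1, Smad2, Fstl1, Chrd and Npas4, each with a read in at most 29.3% of these cells, were left out. Among the genes compared, the highest values were found with 3 of the activity-regulated list. Over the 58 cells, which share 1 label but differ in depth, Spearman's rho with Inhba was 0.61 for Scg2, the secretory granule protein secretogranin II, 0.53 for Ptgs2, the inducible cyclooxygenase, and 0.46 for the kinase gene Mapk4. It was 0.31 for Acvr1c, 0.11 for Smad3, 0.07 for Acvr2a and -0.02 for Id2, while that of Inhba with the reads per cell was 0.06. The early transcription factors had low values, such as -0.21 for Fos and -0.05 for Egr1. The genes named here that are not members were picked for mention after their values were seen. Over the 29 day 14 cells the rho of Inhba was 0.51 with Nptx2, a synaptic pentraxin, 0.45 with Nr4a1 and with Fosb, 0.29 with Scg2 and -0.08 with Mapk4.

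**Figure D4:**
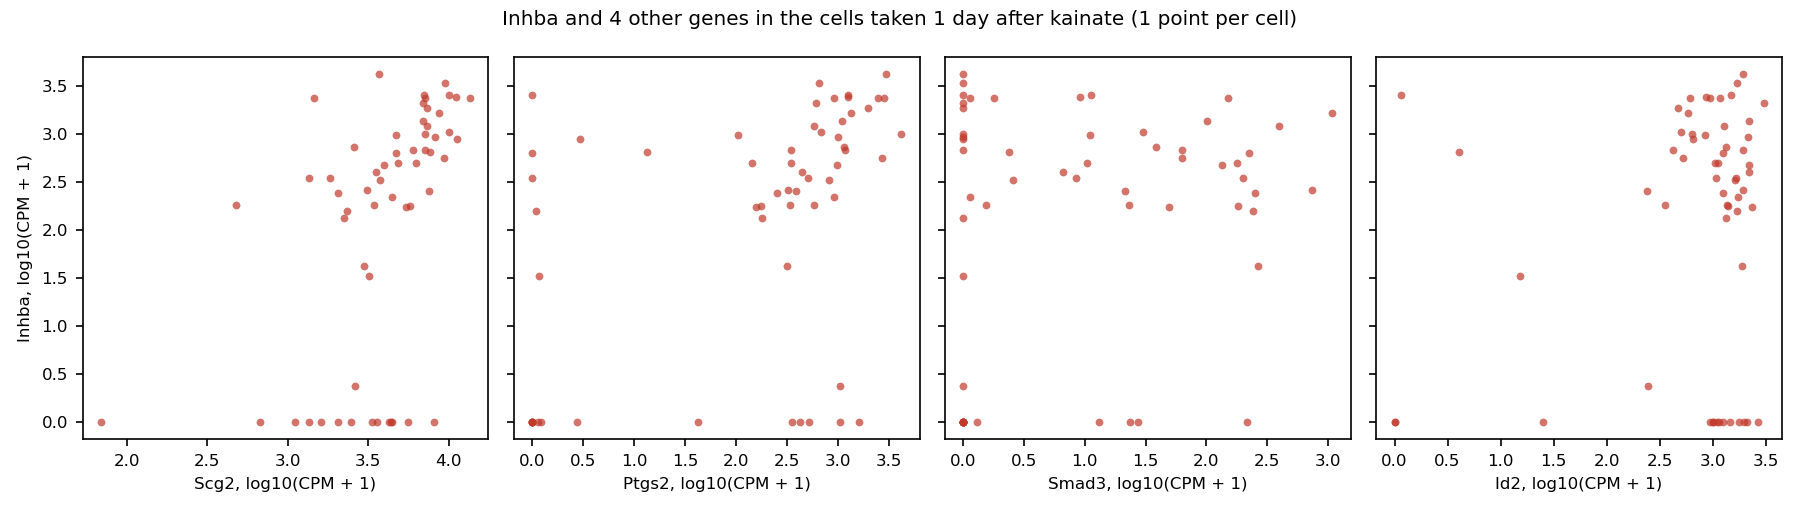
Level of Inhba in each of the 58 day 1 cells against Scg2, Ptgs2, Smad3 and Id2 in the same cell, all as log10(CPM + 1). Cells high in Inhba tend to be high in Scg2 and Ptgs2 (rho 0.61 and 0.53), and show no such order with Smad3 or Id2 (rho 0.11 and -0.02).

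The genes whose levels over the 5 groups were most like those of a member were found among 9739 genes by the root mean square difference of centred log2 levels. For Inhba these were Smtnl2 (0.33), Timp1 (0.54), Wnt9b (0.55), Inadl (0.57) and Dsc1 (0.58). Timp1, an inhibitor of matrix metalloproteases, was at 50.8 CPM at day 1 and at most 0.700 CPM in the other groups. For Smad3 they were H2afy2 (0.44), Gtpbp1, Rpa2, Tmem69 and H1f0 (0.56), and for Acvr1c Lipt2 (0.41), Wnt10a, Il17ra, Tmpo and Zfp707 (0.80). For Chrd they were Slc5a6 (0.28), Fam132a, Lamb1, Ahr and Sord (0.34). Lipt2, for example, stood at 0.134, 32.3, 16.8, 22.4 and 0 CPM in control, day 1, day 14, GFP and Id2 cells.

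The rest of the pathway was read in 9 gene lists with 136 different genes. Of 14 ligand genes of the TGF-beta and activin branch, 4 were measured at day 1 against control. Of the 4, Inhba was the 1 higher, beside 23.2% of all measured genes. Tgfb2, a TGF-beta ligand gene, was at 98.95 CPM in control cells, 110.2 CPM at day 1 and 62.8 CPM at day 14. Tgfb1 was at 3.54, 0.0108 (5 reads) and 16.1 CPM in these groups, and without the microglia-rich cells it was at 0, 0 and 0.584 CPM. Of 15 BMP and GDF ligand genes, 1 was measured at day 1 and 2 at day 14. Bmp3 had 0 reads in control and day 1 cells (limits of 0.0447 and 0.00646 CPM) and 33.3 CPM at day 14, or 3.75 CPM in 1 of the 9 cells that were not microglia-rich.

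For the counts of receptor and Smad genes, the shares of all measured genes were as follows. Against control 23.2% were higher and 15.2% lower at day 1, and 23.8% and 15.8% at day 14. Without microglia-rich cells these were 30.5% and 16.9% at day 1, and 27.4% and 25.8% at day 14. With GFP cells as control they were 17.7% and 14.9%, and 20.4% and 16.7%. Of 11 type II receptor and co-receptor genes, 4 were measured at day 1 against control and all 4 were lower. Their median log2 ratio was -1.60 against 0.17 over all measured genes. Beside Acvr2a these were Tgfbr3, the betaglycan gene (17.7 against 4.69 CPM), the BMP co-receptor gene Rgmb (47.7 against 16.5 CPM) and the BMP receptor gene Bmpr2 (92.2 against 39.4 CPM). Without microglia-rich cells 2 of the 4 were lower, and with GFP cells as control 3. Tgfbr2, the TGF-beta type II receptor gene, was at 0.209 CPM at day 1 and 21.02 CPM at day 14, or 8.10 CPM there in 1 of the 9 cells that were not microglia-rich. At day 14 against control 3 of 5 were lower and 0 higher (median -1.08), but without microglia-rich cells 2 were lower and 1 higher (median 0.88), and with GFP cells as control 2 and 1 (median 0.28). Of 7 type I receptor genes, 5 were measured at day 1, with 1 higher and 1 lower (median -0.14), and at day 14 with 1 higher and 2 lower. At day 1, 3 were higher and 1 lower without microglia-rich cells (median 1.35), and 0 were higher and 2 lower with GFP cells as control. At day 14 these counts were 2 and 2 without microglia-rich cells, and 1 and 3 with GFP cells as control. Of 8 Smad genes, 5 were measured at day 1, with 1 higher and 2 lower. Smad7, the inhibitory Smad, was 1 of the 2 lower beside Smad4, at 77.5 CPM in control cells, 23.95 CPM at day 1 and 26.4 CPM at day 14. With GFP it was at 47.04 CPM. Without microglia-rich cells the day 1 counts of Smad genes stayed at 1 and 2, but with GFP cells as control 1 was higher and 0 lower. At day 14, 2 of 6 were higher and 2 lower. Those counts were 2 and 1 without microglia-rich cells, and 1 and 1 with GFP cells as control.

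Among 22 genes of extracellular antagonists and binding proteins, 10 were measured at day 1 against control, with 3 higher and 3 lower, where 23.2% and 15.2% of all measured genes were. Ltbp1, which codes for a protein that holds latent TGF-beta in the matrix, stood at 0.0744 CPM in control cells (5 reads), 93.8 CPM at day 1 and 12.8 CPM at day 14. Fstl4, a follistatin-like gene, was at 19.1, 120.5 and 57.7 CPM, and at 76.04 CPM with GFP. With Id2, Ltbp3 stood at 77.4 CPM against 10.1 CPM with GFP. Of 20 Smad partners and regulators, 17 were measured at day 1, with 4 higher and 4 lower (median 0.05), against the same shares of all genes. Smurf1, a ubiquitin ligase that acts on Smads and receptors, was at 1.88 CPM in control cells, 68.1 CPM at day 1 and 26.3 CPM at day 14, but at 32.04 CPM with GFP. The ratio of Zeb1, a Smad-binding repressor, was -3.71 at day 14, from 71.3 to 4.51 CPM.

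Genes known to respond to TGF-beta or activin were a list of 20, of which 10 were measured at day 1 against control. Of the 10, 6 were higher and 2 lower, beside 23.2% and 15.2% of all measured genes. The median log2 ratio was 1.504 against 0.17 over all genes. Without the microglia-rich cells the counts were 6 and 2, beside 30.5% and 16.9% of all genes. With GFP cells as control they were 6 and 1, beside 17.7% and 14.9%. Timp1 stood at 0.119 CPM in control cells and 50.8 CPM at day 1, Klf10, an early response gene of TGF-beta, at 30.5 and 228 CPM, and Skil, which represses Smads, at 31.3 and 149.8 CPM. Also higher were Cdkn1a and Col4a1, the latter named after its values were seen, and Id2, the overexpressed gene of the study (127.9 and 1247 CPM). The 2 lower were Smad7 (77.5 CPM in control cells and 23.95 CPM at day 1) and Junb (1213 and 532 CPM). At day 14, 6 of 10 were higher and 2 lower (median 1.11), with the same control cells, beside 23.8% and 15.8% of all genes. Without the microglia-rich cells, which left 13 control and 9 day 14 cells, 4 were higher and 3 lower, where 27.4% and 25.8% of all genes were. Klf10 was then at 81.98 CPM in control cells, 241 CPM at day 1 and 84.9 CPM at day 14, and Skil at 34.6, 152.1 and 18.9 CPM, so that neither was higher by the log2 threshold at day 14. With GFP, Klf10 was at 44.6 CPM and Skil at 92.5 CPM. With Id2 against GFP, 2 of 9 were higher and 0 lower, beside 10.2% and 12.6% of all genes. The 2 were Id2 itself, the gene given by the virus, and Cdkn1a (75.6 against 3.59 CPM). Without the microglia-rich cells 5 were higher and 0 lower, beside 10.6% and 13.05% of all genes. Several genes of this list are known to respond to neuronal activity as well.

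The 25 activity-regulated genes beside Inhba were all measured in the kainate comparisons. Between day 1 and day 14, 8 were higher at day 1 and 1 lower, beside 16.6% and 17.4% of all genes. Among the higher were Ptgs2 (650 against 43.8 CPM), Arc (1766 against 253 CPM) and Npas4 (51.03 against 3.37 CPM). Against control cells 4 of 25 were higher and 5 lower at day 1, beside the 23.2% and 15.2% of all genes, and 3 higher and 11 lower at day 14, beside 23.8% and 15.8%. At day 1, 7 were higher and 8 lower without microglia-rich cells, beside 30.5% and 16.9% of all genes. With GFP cells as control the counts were 8 and 11, beside 17.7% and 14.9%. Ptgs2 was at 384 CPM, Arc at 1750 CPM and Npas4 at 282 CPM in control cells. At day 1 against control the log2 ratio was 0.01 for Arc, -2.45 for Npas4 and 0.76 for Ptgs2, beside 3.94 for Inhba. The highest ratio of the list, above that of Inhba, was that of Sorcs3, at 0.432 CPM in control cells and 534 CPM at day 1. Sorcs3 passed the low-level filter there only through the day 1 group. Mapk4 came next, at 60.8 CPM in control cells and 583 CPM at day 1. With Id2 against GFP, 0 of 23 were higher and 5 lower, beside 10.2% and 12.6% of all genes. Of the 5, Ptgs2 (39.7 against 206 CPM) had the largest ratio in size.

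**Figure D5:**
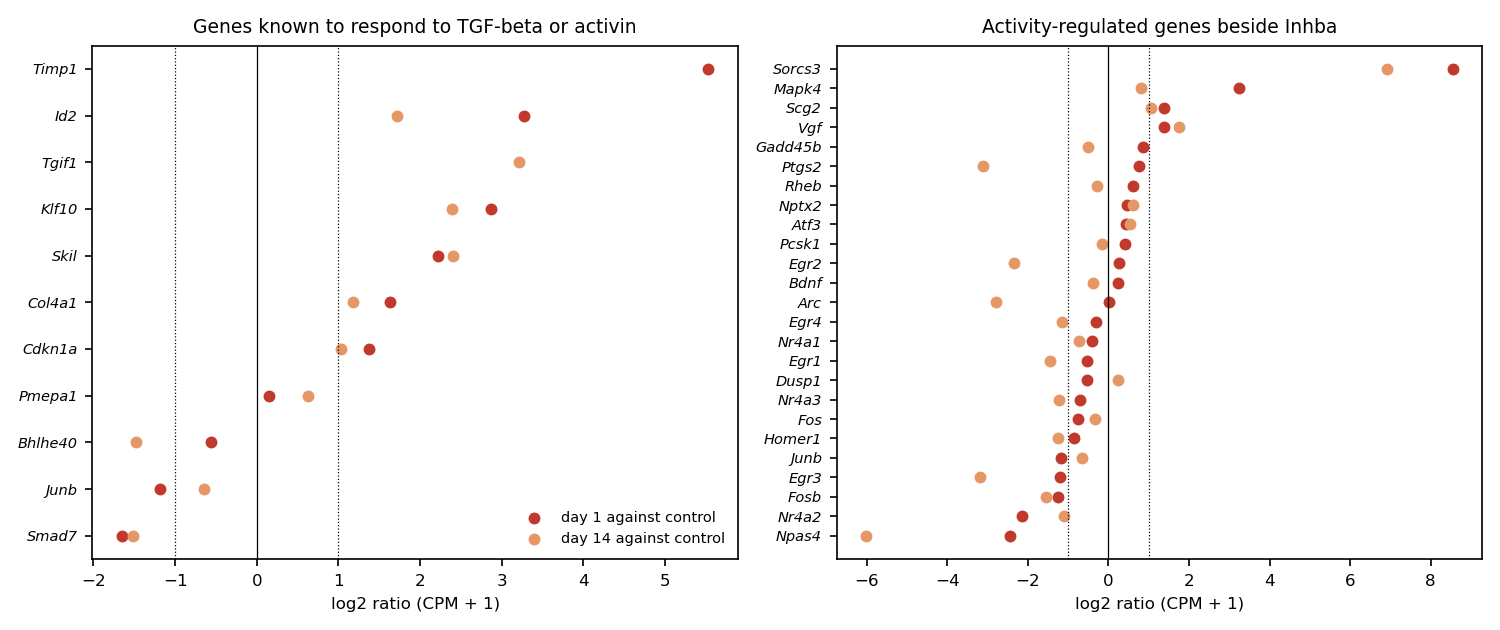
Log2 ratio, after adding 1 CPM, of the measured genes of 2 lists at day 1 and day 14 against the same control cells, with dotted lines at 1 and -1. With all cells Klf10 and Skil lie above 2 at both days and Smad7 below -1 at both, and among activity-regulated genes Sorcs3 and Mapk4 have the highest day 1 ratios.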

How the data were processed

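Per the labels' protocols, the cytosol of single cells was extracted through a patch pipette and sequenced with Nextera XT libraries. The submitters' processing notes name Trimmomatic, STAR, featureCounts and GRCm38, without versions, and no source used here gives the strand setting of the counting. The authors deposited whole-number counts of 22800 genes in 291 cells and, for 252 cells, a scaled signal that the authors made by multiplying the counts of a cell by 1 factor (0.187 to 287). The unit of each table was settled on its values. The counts gave all levels, and the signal was an alternative.

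Of 304 labelled samples, 13 without a column were not used. Of 39 cells labelled Failed, the 38 of the 5 groups were used in an alternative only, and 2 contralateral and 2 low_DG cells stayed out of the comparisons. Counts were summed per group with Python 3.11.15, pandas 2.3.3, numpy 2.4.6 and scipy 1.17.1. TMM factors came from edgeR 4.0.16 in R 4.3.3, as a scaling only. Log2 ratios were checked on simulated counts. Gene positions and overlaps are from GENCODE M21 (GRCm38), and promoters from RefSeq (GRCm38.p6). Reads are not independent molecules, and the intervals on shares take each cell as 1 independent draw. Named list genes are up to 3 measured genes of each list per comparison with the largest ratio in size. Exceptions are Col4a1, Junb and the genes named for their rho with Inhba, which were picked after their values were seen. The members, lists and rules were chosen with earlier results of these data known.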

Additional observations from a re-analysis of the deposited data

Results flagged for a closer look

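The 2 cells taken on the side opposite the injection 1 day after kainate (labelled KA1_DG_contra) stood in no comparison. Acvr1c was at 15.6 CPM in them (exact Poisson interval 13.1 to 18.5), above the 0.551 CPM of control cells, and Smad3 was at 45.04 CPM (40.6 to 49.8), above 0.968 CPM. Each value rests on 1 of the 2 cells, at 70.7 CPM for Acvr1c and 204 CPM for Smad3, while the other cell had 0 reads of both. The highest control cells were at 4.67 CPM and 18.04 CPM. Inhba was at 79.6 CPM and Acvr2a at 423 CPM in the same 2 cells, within the range of single control cells.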

How the results depend on the processing

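Each group is 1 sample, so a value speaks of these cells only. No paired analysis was possible because no comparison rests on a test and no label pairs cells across the groups compared. Counts of members higher or lower stayed within 1.5 times of the value given in 99 of 120 alternative settings, every member counted was counted again in 93, and exactly the same members were in 65. With GFP cells as control, the 2 higher at day 1 were Inhba and Smad2, and Acvr1b stood among the 4 lower in place of Smad4. In the alternatives no low filter was applied in 1 setting, and each other setting kept the measured genes. Against controls without J titles, 5 members instead of 3 were higher at day 1 and 2 instead of 4 lower at day 14. Between day 1 and day 14, 6 instead of 3 were higher without microglia-rich cells, and 2 instead of 1 lower with equal weight per cell, with thinned cells, without microglia-rich cells and without the top cell of each gene. With Id2, 2 instead of 1 were higher with no low filter, 0 without microglia-rich cells and 0 without top cells, and 2 instead of 4 lower with equal weight and in the authors' scaled table. With GFP against control, 2 instead of 1 were lower with equal weight, TMM scaling, no low filter, J-titled controls, and without microglia-rich or top cells, and 3 with thinned cells, the scaled table and without the deepest cells.

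Called ratios that turned direction were Smad4 at day 1 (0.479) and at day 14 (0.811) and Smad3 at day 14 (-1.647) against GFP cells, Acvr1b at day 14 against controls without J titles (1.038), Smad2 at day 14 in the scaled table (-0.31), and Smad4 with Id2 without microglia-rich cells (-0.415) or top cells (-0.307). The causes were not tested. TMM scaling moved the median of all genes by -0.11 with GFP against control, and the scaled table moved it by -0.11 at day 1, -0.18 at day 14 and 0.13 with Id2.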
